A study of Rattus norvegicus with 12 samples.

Results

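Striatal interneurons are told apart by the peptides, the enzyme and the calcium-binding proteins that they make, and 8 such genes are described here. They are the peptide genes Sst (somatostatin), Npy (neuropeptide Y), Vip (vasoactive intestinal peptide) and Cck (cholecystokinin), the neuronal nitric oxide synthase gene Nos1, and the calcium-binding protein genes Pvalb (parvalbumin), Calb1 (calbindin) and Calb2 (calretinin). They were found among the array's 35608 gene names by the symbol that the files give each probe, and all 8 had probes, 11 in total with 56 spots per array. A gene was tested when the scanner software had called a probe of it well above background on enough arrays (a share of 0.4 or more), and 7 of the 8 genes passed with every probe called on all 12 arrays. The exception was Nos1, whose probe was called on 1 of 12 arrays, an HFS array.

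The study asked how stimulation of the subthalamic nucleus and L-DOPA act on gene expression in the dopamine-depleted striatum. All 12 rats were male and carried a lesion of the left substantia nigra pars compacta, made by 9 µg of 6-OHDA, a toxin of dopamine neurons, in 4.5 µL. They fell into 4 groups of 3, and each rat had an array of its own. The 6-OHDA group had the lesion and no further treatment. The HFS group was stimulated in the subthalamic nucleus on the side of the lesion without pause for 5 days (frequency 130 Hz, pulse width 80 µs, current 60 µA). Rats of the DOPA group were injected 2 times a day, 12 h apart, with L-DOPA (25 mg/kg) together with benserazide (12.5 mg/kg), and this went on for 19 days. The DOPA/HFS group received both, with the stimulation on the last 5 of those days. Rats of the HFS and DOPA/HFS groups had an electrode implanted under anaesthesia after the lesion. No implant is described for the 6-OHDA and DOPA groups, so implantation and stimulation cannot be told apart. The rats were killed 33 days after the lesion. No array came from an unlesioned rat, so an effect of the lesion itself cannot be read. The RNA came from pooled punches of dorsal striatum and holds every cell type of that tissue. In it, fewer cells of a type and less RNA per cell cannot be told apart. Each replicate number stands for 1 of 3 slides, and each group held the same position on every slide, so group and position cannot be told apart.

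Most striatal neurons are projection neurons that release GABA, and interneurons are a small minority among them. One class of interneuron makes somatostatin, neuropeptide Y and neuronal nitric oxide synthase together, fast-spiking cells contain parvalbumin, and other cells contain calretinin. Calbindin is also made by many projection neurons of the striatal matrix, and cholecystokinin is made by many neurons of the cortex and thalamus that project to the striatum, so neither gene marks interneurons alone.

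The label of the tissue was checked with 11 genes of striatal projection neurons, and all 11 were well above background on all 12 arrays. The 10 of these genes with a value on every array had a summed signal of 235400 to 333300, and their mean log2 signal lay between 13.79 and 14.11. Array 3 of the DOPA/HFS group stood apart in quality, with 4175 spots that the scanner software had marked as outliers, while the other 11 arrays had between 2 and 25. On it, 7 of 10 Sst spots, 7 of 10 Npy spots and 3 of 10 Nos1 spots were left out. The values of these genes on this array therefore rest on fewer spots. The other members had 0 spots left out on it, but their values there also depended on whether outlier spots were kept. With outlier spots kept, Pvalb read 10.02 instead of 10.41, Calb1 13.75 instead of 13.94 and Calb2 10.24 instead of 10.60. Vip read 9.29 instead of 9.72, and Cck 12.73 instead of 12.94.

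limma called none of the 7 genes tested in a comparison of treated with untreated rats, all of them lesioned, and for each of the 7 the arrays of the groups overlapped. In the comparison of HFS with 6-OHDA, limma called 0 of 7 members and 0% of all 20462 genes, a call being an adjusted p (Benjamini-Hochberg, over all genes) under 0.1 together with a fold over 1.2 or under 0.8. At an unadjusted p under 0.05 the counts were 0 of 7 members and 2.34% of all genes. The arrays of the HFS and 6-OHDA groups did not overlap for 0 of 7 members and for 5.14% of the 18351 genes with a value on every array. The median log2 difference of the members was -0.091, and that of all genes was 0.009.

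In the comparison of DOPA with 6-OHDA, limma again called 0 of 7 members and 0.00489% of all genes. At an unadjusted p under 0.05 there were 0 members and 2.59% of all genes, and 0 members and 6.17% of all genes had arrays that did not overlap between the groups. The count of all genes called was 1, and it was 13 without array 1 of DOPA/HFS. The members' median was -0.059 and that of all genes was -0.01. In the comparison of DOPA/HFS with 6-OHDA, limma called 0 of 7 members and 0% of all genes. Here 0 members and 2.76% of all genes had an unadjusted p under 0.05, and 0 members and 4.19% of all genes did not overlap. Without array 1 of DOPA/HFS limma called 3 genes and 0 members. The members' median was 0.015, beside -0.012 for all genes. These 3 comparisons share the same 6-OHDA arrays.

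The main effects set 6 rats against 6. For L-DOPA, with the DOPA and DOPA/HFS groups against the others, limma called 0 of 7 members and 0.00489% of all genes, which is 1 gene and became 29 without array 1 of DOPA/HFS. The shares at an unadjusted p under 0.05 were 0 of 7 members and 2.73% of all genes, and those without overlap were 0 of 7 members and 0.136% of all genes. For stimulation, with the HFS and DOPA/HFS groups against the others, limma called 0 of 7 members and 0% of all genes. An unadjusted p under 0.05 was found for 0 members and 4.34% of all genes, and no overlap for 0 members and 0.163% of all genes. The interaction asks whether stimulation acted differently with and without L-DOPA, and limma called 0 of 7 members and 0% of all genes in it. It reached an unadjusted p under 0.05 for 0 members and 1.98% of all genes.

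**Figure D1:**
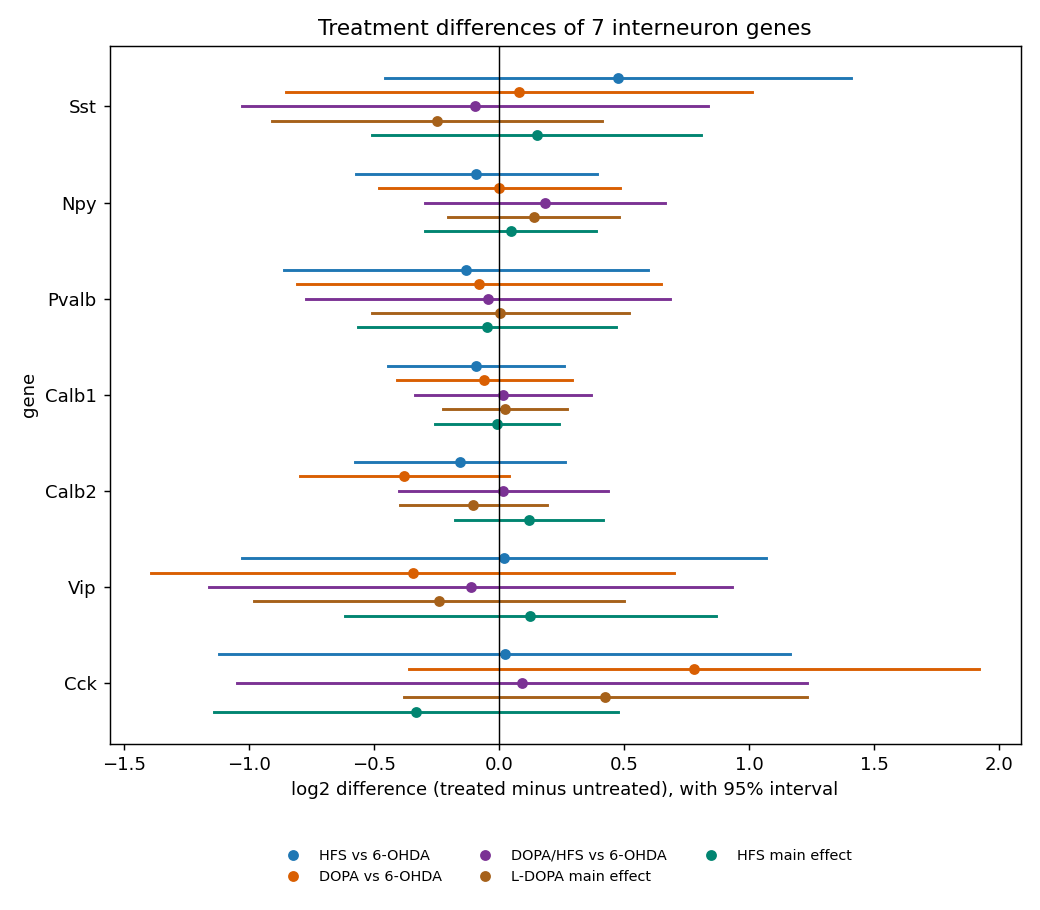
Log2 difference of each of the 7 genes tested (vertical axis) in 5 comparisons (colours), with dots for the limma estimate and lines for its 95% interval. Every interval includes 0, and those of Cck, Vip and Sst are the widest, with Cck in DOPA against 6-OHDA spanning -0.36 to 1.92.

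Sst codes for somatostatin, the peptide of the class of interneuron that also makes neuropeptide Y. Its log2 signal on arrays 1 to 3 was 12.85, 13.56 and 13.96 in 6-OHDA, 13.71, 13.96 and 14.13 in HFS, 13.63, 13.74 and 13.24 in DOPA, and 14.45, 12.57 and 13.06 in DOPA/HFS. The HFS arrays lay close together in and just above the upper part of the 6-OHDA range, the DOPA arrays lay within that range, and the DOPA/HFS group held both the highest and the lowest array of the study. The order of the group means was HFS, DOPA, 6-OHDA and DOPA/HFS, in which HFS and DOPA overlapped but differed by more than the SD of either group, while DOPA and 6-OHDA, and 6-OHDA and DOPA/HFS, differed by less. Sst was higher in HFS than in 6-OHDA by a log2 difference of 0.48 (SE 0.42, n = 3 and 3, 95% interval -0.46 to 1.41), with an exact permutation p of 0.3. This difference leaned on single arrays of 6-OHDA, and was 0.17 without array 1 and 0.73 without array 3. The smallest p that 3 arrays against 3 can give in this two-sided test is 0.1. In DOPA/HFS the difference was -0.097 (SE 0.42), and it was 0.048 (SE 0.48) when the array with many outlier spots was left out. Leaving out each array in turn moved it between -0.642 and 0.3.

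Npy codes for neuropeptide Y. Its log2 signal was 15.05, 15.09 and 14.77 in 6-OHDA, 14.78, 14.84 and 15.00 in HFS, 14.90, 14.85 and 15.16 in DOPA, and 14.76, 15.00 and 15.68 in DOPA/HFS. Array 3 of DOPA/HFS stood above all the others, and the remaining arrays of the 4 groups overlapped. Against 6-OHDA, Npy differed by -0.091 in HFS and by 0 in DOPA, and in DOPA/HFS the difference was 0.18, each with SE 0.22. The exact permutation p was 0.5, 1 and 0.9 in this order. The HFS value was -0.032 without array 2 of 6-OHDA and -0.19 without array 3 of 6-OHDA. The highest value of Npy rests on the spots left on that array. It was 15.45 with the outlier spots kept, and the DOPA/HFS difference was -0.082 (SE 0.17) without the array. Over the 12 arrays 4 spots of the Npy probe were saturated.

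Nos1 makes nitric oxide in the same class of interneuron. Its values, between 3.22 and 4.36 on the log2 scale, lay at the level of background, and its 10 spots scattered within an array with a median SD of 0.45. No fold is given for it, and the arrays show neither presence nor absence of a change. On array 3 of DOPA/HFS its value was 3.96 without the outlier spots and 6.03 with them.

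Pvalb codes for parvalbumin, the calcium buffer of the fast-spiking interneurons. The arrays read 10.57, 10.91 and 9.90 in 6-OHDA, 10.24, 10.46 and 10.29 in HFS, 10.44, 10.65 and 10.05 in DOPA, and 9.77, 11.08 and 10.41 in DOPA/HFS on the log2 scale. The groups overlapped throughout, with the HFS arrays closest together and the DOPA/HFS arrays farthest apart. HFS, DOPA and DOPA/HFS differed from 6-OHDA by -0.13, -0.079 and -0.043, each with SE 0.33, and the exact permutation p was 0.7, 0.9 and 1. Each of these differences changed sign when some single arrays were left out.

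Calb2 codes for calretinin. Its log2 signal was 10.58, 11.08 and 10.77 in 6-OHDA, 10.49, 10.86 and 10.62 in HFS, 10.38, 10.22 and 10.69 in DOPA, and 10.89, 11.00 and 10.60 in DOPA/HFS. The DOPA arrays were the lowest as a group, but array 3 of DOPA lay above array 1 of 6-OHDA. The order of the means was DOPA/HFS, 6-OHDA, HFS and DOPA. The difference of DOPA from 6-OHDA was -0.38 (SE 0.19, n = 3 and 3, 95% interval -0.80 to 0.039), with an exact permutation p of 0.2 and an adjusted p of 1 in limma. It was -0.24 without array 2 of 6-OHDA. The interaction was 0.55 (SE 0.27, 95% interval -0.038 to 1.14), with an adjusted p of 1.

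Calb1 codes for calbindin and was the member with several probes, 4 in all. The brightest stood for the gene and read 13.77, 13.72 and 14.02 in 6-OHDA, 13.56, 13.71 and 13.97 in HFS, 13.93, 13.84 and 13.56 in DOPA, and 13.84, 13.78 and 13.94 in DOPA/HFS on the log2 scale. These arrays overlapped in all groups and kept within a narrow band from 13.56 to 14.02. HFS, DOPA and DOPA/HFS differed from 6-OHDA by -0.091, -0.059 and 0.015, each with SE 0.16. The 95% interval in DOPA/HFS was -0.34 to 0.37, a bound on the change that this probe allows.

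The other 3 probes of Calb1 gave other values than the brightest. In DOPA/HFS against 6-OHDA, the other probes, from the brighter to the dimmer, gave log2 differences of -0.060, 0.40 and 0.35. None passed limma, with unadjusted p of 0.748, 0.105 and 0.108 and adjusted p of 0.9997 each. Over the 12 arrays the 2 dimmest probes rose and fell together, with Pearson r = 0.912 (permutation p = 9e-05, adjusted p = 0.00054 over 6 pairs) and Spearman rho = 0.867 (permutation p = 0.00047), with r = 0.822 without the 2 arrays farthest from the median and 0.901 within groups, as deviations from the group means. The brightest probe had r between -0.226 and -0.065 with the other 3 (adjusted permutation p of 0.713 to 0.838), so the pattern of Calb1 over the arrays depends on the probe that is read.

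**Figure D2:**
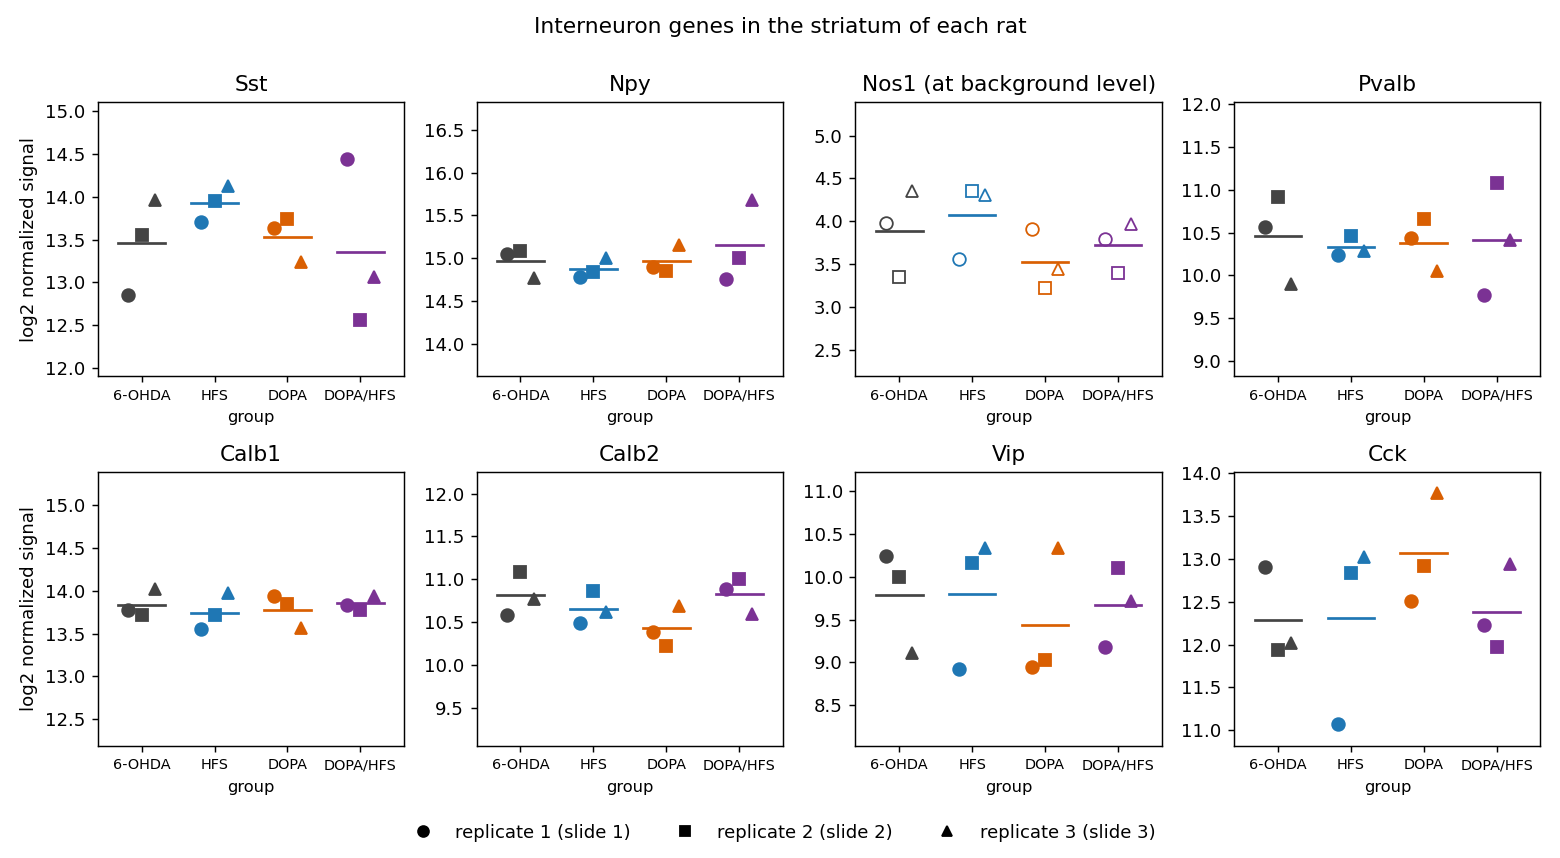
Log2 normalized signal (vertical axes, each spanning 3.2 units) of the 8 genes on each of the 12 arrays by group (horizontal axes), with symbols for the replicate number, which is also the slide, and bars for the group mean of 3 arrays. The groups overlap in every panel, Cck runs from 11.07 to 13.76, Calb1 from 13.56 to 14.02, and Nos1 is drawn hollow because its probe was well above background on 1 array.

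Vip codes for vasoactive intestinal peptide. Its log2 signal was 10.24, 10.00 and 9.11 in 6-OHDA, 8.92, 10.16 and 10.33 in HFS, 8.95, 9.03 and 10.33 in DOPA, and 9.18, 10.11 and 9.72 in DOPA/HFS. Each group held arrays near 9 and arrays near 10, and the groups overlapped. HFS, DOPA and DOPA/HFS differed from 6-OHDA by 0.019, -0.35 and -0.11, each with SE 0.47, and the exact permutation p was 1, 0.7 and 0.8. The value in DOPA was -0.10 without array 1 of DOPA and -0.79 without array 3 of DOPA.

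Cck codes for cholecystokinin. The arrays read 12.91, 11.94 and 12.02 in 6-OHDA, 11.07, 12.83 and 13.02 in HFS, 12.51, 12.92 and 13.76 in DOPA, and 12.23, 11.97 and 12.94 in DOPA/HFS on the log2 scale. Array 1 of HFS was the lowest and array 3 of DOPA the highest, and array 1 of 6-OHDA lay within the DOPA range. Cck was higher in DOPA than in 6-OHDA by 0.78 (SE 0.52, n = 3 and 3, 95% interval -0.36 to 1.92), a fold of 1.72, with an exact permutation p of 0.2 and an adjusted p of 1 in limma. It was 0.43 without array 3 of DOPA. The difference of HFS from 6-OHDA was 0.022 (SE 0.52) and became 0.64 (SE 0.42) without array 1 of HFS. Leaving out each array in turn gave values from -0.337 to 0.64, so its sign depends on the arrays used.

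Arrays of the same group, each from 1 rat, were far apart for some of these genes. The SD between arrays within a group was 0.73 for Cck, 0.66 for Vip and 0.59 for Sst on the log2 scale, beside a median of 0.27 over all genes with a value on every array. Of those genes, 94.5% had a smaller SD than Cck, 92.8% a smaller SD than Vip and 89.7% a smaller SD than Sst. Differences between rats and those from dissection, labelling and hybridization both enter this SD and cannot be told apart. Pvalb had an SD of 0.45, Npy 0.27, Calb2 0.22 and Calb1 0.17, and 17.1% of genes had a smaller SD than Calb1.

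The pairs of members were compared over the 12 arrays, 28 pairs in all, and 0 pairs passed an adjusted p under 0.05. Sst and Npy, made by the same class of interneuron, had a negative correlation that did not pass. Pearson r was -0.555 (permutation p = 0.0582, adjusted p = 0.57) and Spearman rho was -0.692 (permutation p = 0.0156, adjusted p = 0.437). Without the 2 arrays farthest from the Sst median, r was -0.763. A slide holds 4 arrays, too few for a value of its own, so deviations from the group means were taken, with r = -0.499, and from the group and slide means, with r = -0.597. The lowest arrays for Sst were array 2 of DOPA/HFS and array 1 of 6-OHDA, and both lay above the median array for Npy.

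Sst and Nos1 had r = 0.364 (permutation p = 0.246) and rho = 0.343 (permutation p = 0.276), with r = 0.371 without the 2 farthest arrays. Npy and Nos1 had r = -0.056 (permutation p = 0.885) and rho = -0.189 (permutation p = 0.557), with r = -0.207 without them. Within groups the values were 0.287 and 0.065. The Nos1 values behind both pairs are at background, and both pairs changed sign when outlier spots were kept. By Pearson r the pair with an unadjusted p under 0.05 was Sst and Pvalb, and by Spearman rho it was Sst and Npy. Sst and Pvalb had r = -0.628 (permutation p = 0.0278, adjusted p = 0.57), rho = -0.58 (permutation p = 0.0515) and r = -0.645 within groups (permutation p = 0.0604). After group and slide means were removed r was -0.794 (permutation p = 0.033, adjusted p = 0.676). Without the 2 farthest arrays r was -0.402, so the relation leaned on those arrays. It also depended on the values used, with r = -0.338 (permutation p = 0.28) in the deposited log2 table and -0.482 (permutation p = 0.112) with outlier spots kept. Vip and Cck had r = 0.522 (permutation p = 0.0815, adjusted p = 0.57) and rho = 0.559 (permutation p = 0.0623), r = 0.384 without the 2 farthest arrays and r = 0.756 within groups.

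The members were also compared with the mean of each gene list over the arrays, 77 relations that were chosen after seeing the data, and 3 passed an adjusted p under 0.05. Cck ran with Cort, the gene of cortistatin, a somatostatin-like peptide, which was the one gene in a list of peptide relatives with a value on every array. Cort read 9.86, 9.22 and 9.46 in 6-OHDA, 8.88, 10.16 and 10.35 in HFS, 9.54, 10.10 and 10.54 in DOPA, and 9.04, 9.01 and 9.99 in DOPA/HFS. Array 1 of HFS was the lowest and array 3 of DOPA the highest for both genes. Pearson r was 0.919 (permutation p = 1e-05, the smallest that 100000 permutations can give, adjusted p = 0.00077) and Spearman rho was 0.916 (permutation p = 1e-04). It was 0.914 without those 2 arrays, 0.969 within groups and 0.974 after group and slide means were removed.

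Cck also ran with markers of the glutamatergic neurons of cortex and thalamus. Of the 8 markers listed, 3 had probes, namely Slc17a7 and Slc17a6, which load glutamate into vesicles, and the transcription factor gene Neurod2. Their summed signal on arrays 1 to 3 was 940.6, 483.8 and 516.5 in 6-OHDA, 221.6, 1154 and 1372 in HFS, 415.1, 594 and 1580 in DOPA, and 599.1, 682.5 and 593.7 in DOPA/HFS. Slc17a7 was well above background on 10 of 12 arrays. Again array 1 of HFS was the lowest and array 3 of DOPA the highest. Pearson r of Cck with their mean was 0.852 (permutation p = 0.00069, adjusted p = 0.0249) and rho was 0.755 (permutation p = 0.00663, adjusted p = 0.0974). It fell to r = 0.622 without those 2 arrays, and was 0.924 within groups (adjusted p = 0.0185). After group and slide means were removed r was 0.905 with an adjusted p of 0.125, so the call was lost there.

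Vip had r = 0.762 with the same markers (permutation p = 0.00412, adjusted p = 0.0634) and rho = 0.881 (permutation p = 0.00037, adjusted p = 0.0142), with r = 0.653 without the 2 farthest arrays and 0.826 within groups. The 4 arrays with the highest marker mean, array 1 of 6-OHDA, arrays 2 and 3 of HFS and array 3 of DOPA, were also the 4 highest for Vip. Between the groups the marker list had a median difference of 0.38 for HFS, 0.26 for DOPA and 0.095 for DOPA/HFS, and limma called 0 of 3 genes in each. The part of these neurons in the Cck and Vip values was not tested.

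**Figure D3:**
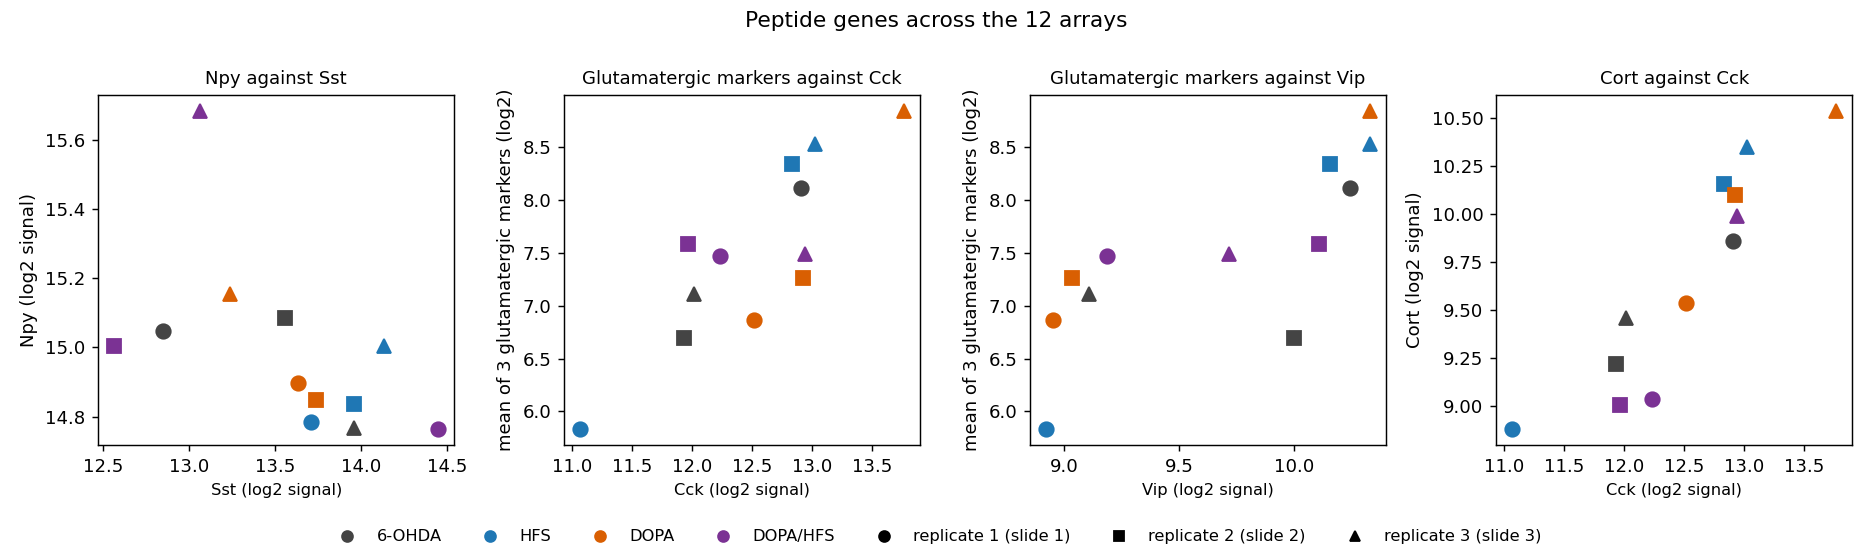
Scatter plots over the 12 arrays in log2 signal, from left to right Npy against Sst, the mean of 3 glutamatergic markers against Cck and against Vip, and Cort against Cck, with colours for groups and symbols for replicates. Pearson r is -0.555, 0.852, 0.762 and 0.919, and array 1 of HFS is at the lower left of the plots of Cck and Vip.

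The remaining relation that passed was between Sst and the nitric oxide pathway, the mean of 6 genes that include the subunits of the nitric oxide receptor guanylate cyclase. This mean moved little, between 11.00 and 11.35 on the log2 scale. Pearson r was 0.82 (permutation p = 0.00097, adjusted p = 0.0249), rho was 0.692 (permutation p = 0.0158, adjusted p = 0.136) and r was 0.747 without the 2 farthest arrays. Within groups r was 0.853 with an adjusted p of 0.0747, so the call was lost, and after group and slide means were removed it was 0.945 with an adjusted p of 0.0466. With scaling to the 75th percentile r was 0.656 with an adjusted p of 0.22, and with outlier spots kept it was 0.741 with an adjusted p of 0.11, so the call was lost in these 2 settings as well.

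Receptors of these peptides were followed as a list of 14 genes, of which 11 were tested. limma called 0 of 11 in each of the 6 comparisons. In DOPA against 6-OHDA 2 of 11 had arrays that did not overlap, both higher, beside 6.17% of all genes. Sstr2, a somatostatin receptor gene, read 8.90, 7.96 and 8.58 in 6-OHDA and 9.09, 9.46 and 10.09 in DOPA. All 3 DOPA arrays were above all 3 of 6-OHDA, with a difference of 1.06 (SE 0.33, exact permutation p = 0.1, adjusted p = 1). Npy5r, a neuropeptide Y receptor gene, read 8.09, 8.12 and 7.17 in 6-OHDA and 8.46, 8.19 and 8.69 in DOPA. It too was higher on 3 of 3 arrays, by 0.65 (SE 0.40, exact permutation p = 0.1, adjusted p = 1), a size that leans on array 3 of 6-OHDA. For HFS, DOPA and DOPA/HFS the median of the list was 0.004, 0.04 and 0.047. In HFS 0 of 11 were without overlap, and in DOPA/HFS 0 of the 10 with a value on every array. The DOPA/HFS differences of Sstr2 and Npy5r were 0.41 (SE 0.33) and 0.39 (SE 0.40). The receptor genes Cckar and Npy4r were well above background on 0 arrays and Npy2r on 1.

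The nitric oxide pathway list held 10 genes besides Nos1, 7 of them tested and 0 called by limma in each comparison. For HFS, DOPA and DOPA/HFS its median was 0.062, -0.071 and 0.004. Ddah1, whose product breaks down an inhibitor of nitric oxide synthases, had an L-DOPA main effect of -0.32 (SE 0.14, exact permutation p = 0.0195, adjusted p = 0.9998) with groups that overlapped. It was the 1 gene of 7 with an unadjusted p under 0.05 in that effect, beside 2.73% of all genes, and the median of the list was -0.041. In HFS against 6-OHDA 1 gene of 7 did not overlap, beside 5.14% of all genes, and this was Ddah1, higher by 0.18 (SE 0.20). In DOPA against 6-OHDA it was also 1 gene, Nos1ap, higher by 0.40 (SE 0.26), beside 6.17% of all genes. Nos1ap had a value on 11 arrays, so it is not among the genes behind that share. It read 9.4, 8.77 and 9.42 in 6-OHDA and 9.61, 9.44 and 9.74 in DOPA, so the size leans on array 2 of 6-OHDA.

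Other interneuron genes formed a list of 21, of which 18 were tested and 0 called by limma in each comparison. Their median difference from 6-OHDA was 0.21 for HFS, 0.044 for DOPA and 0.15 for DOPA/HFS. Array 2 of 6-OHDA had the lowest mean of this list, 8.55, beside 8.89 and 9.07 on arrays 1 and 3 of that group. The same array was also lowest for the receptor list and for the EF-hand, astrocyte and microglia lists described below. Th, the gene of the enzyme that starts dopamine synthesis, is expressed by some striatal interneurons and read 5.31, 4.38 and 5.33 in 6-OHDA, 5.33, 5.36 and 5.39 in HFS, 5.98, 5.62 and 6.07 in DOPA, and 5.53, 5.50 and 6.04 in DOPA/HFS. For Th every array of the L-DOPA groups was above every other array. This held for 1 of the 17 genes with a value on every array, beside 0.0872% of all genes in this direction. The Th values were low, well above background on 10 of 12 arrays. Without overlap with 6-OHDA were 1 gene in HFS (Th, beside 5.14% of all genes, with the nearest arrays of the 2 groups both at 5.33), 2 in DOPA (Th and Gad1, beside 6.17%) and 1 in DOPA/HFS (Th, beside 4.19%), each higher. In the L-DOPA main effect 8 of the 18 genes were higher and 10 lower, with a median of -0.018, and 2 had an unadjusted p under 0.05, both higher, beside 2.73% of all genes. For Th the L-DOPA main effect was 0.61 (SE 0.18, n = 6 and 6) with an exact permutation p of 0.00216, the smallest that 6 against 6 can give, and an adjusted p of 0.9998. Its size leans on array 2 of 6-OHDA, where the Th value lies under 5.12, the lowest level called well above background on that array. The other was Gad1, the gene of a GABA-synthesizing enzyme found also in projection neurons, with 0.46 (SE 0.17, exact permutation p = 0.0108, adjusted p = 0.9998). Gad2, which codes for the second such enzyme, had -0.11 (SE 0.22), and Slc32a1, which loads GABA into vesicles, had -0.008 (SE 0.12). Gad1 read 11.91, 11.09 and 11.94 in 6-OHDA and 12.21, 12.05 and 12.11 in DOPA. The size of its difference between these 2 groups therefore leans on array 2 of 6-OHDA. Lhx6, a transcription factor gene of the Sst and Pvalb interneurons, did not pass the filter, and neither did Kcnc2 and Erbb4.

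Other proteins with EF-hand calcium-binding sites, the fold that parvalbumin, calbindin and calretinin share, formed a list of 15 genes. limma tested 13 and called 0 in each comparison, and the median was 0.074 for HFS, 0.003 for DOPA and 0.041 for DOPA/HFS. In DOPA against 6-OHDA 1 of the 12 genes with a value on every array did not overlap, beside 6.17% of all genes. It was Ncs1, a neuronal calcium sensor, higher by 0.53 (SE 0.21, exact permutation p = 0.1, adjusted p = 1). Ncs1 read 7.62, 6.99 and 7.84 in 6-OHDA and 7.99, 7.91 and 8.14 in DOPA, so the size leans on array 2 of 6-OHDA. Of the 5 peptide relatives 3 were tested and 0 called, with a median of 0.13 for HFS, 0.39 for DOPA and -0.17 for DOPA/HFS.

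Markers of other cell types were read on the same arrays. The choroid plexus list had 9 of 10 genes with probes and 7 tested, and the summed signal of its 6 genes with a value on every array was 262.2, 393.2 and 343.8 in 6-OHDA, 89060, 4301 and 44690 in HFS, 229.1, 1492 and 16490 in DOPA, and 600.2, 919.4 and 275.5 in DOPA/HFS. Among these 6 Ttr, the gene of transthyretin, ran from 2.41 to 16.30 on the log2 scale. Kl and Prlr, well above background on 2 arrays each, were not tested and are not in the sum. All 7 genes had an unadjusted p under 0.05 in HFS, beside 2.34% of all genes, and limma called 0. The difference was positive for 7 genes with HFS or with L-DOPA alone and for 5 with both, and no size is given because Clic6 and Kcnj13 were well above background on 5 arrays each and Ttr on 10. The correlation of the members with this list was lowest for Calb1, with r = -0.492 (permutation p = 0.102, adjusted p = 0.559), rho = -0.427 (permutation p = 0.168) and r = 0.068 without the 2 farthest arrays. It was highest for Sst, with r = 0.243 (permutation p = 0.442, adjusted p = 0.816), rho = 0.301 (permutation p = 0.339) and r = 0.139 without the 2 farthest arrays.

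Astrocyte, oligodendrocyte and microglia markers were tested for 6 of 6 genes each, and limma called 0 in each comparison. The astrocyte gene Slc1a2 did not overlap with 6-OHDA in HFS and in DOPA, higher by 0.138 (SE 0.139) and 0.267 (SE 0.139). This was 1 of 6 genes, beside 5.14% and 6.17% of all genes, and 0 oligodendrocyte or microglia genes did so. For Slc1a2 the nearest arrays of HFS and 6-OHDA read 11.29 and 11.28. The medians in HFS, DOPA and DOPA/HFS were 0.05, 0.09 and 0.089 for astrocytes, 0.14, 0.023 and 0.019 for oligodendrocytes, and 0.046, 0.20 and 0.21 for microglia. The summed signal of the astrocyte markers ran from 52150 to 63840 over the arrays, and that of the microglia markers from 10320 to 12850. Sst and the oligodendrocyte mean had r = 0.637 (permutation p = 0.0262, adjusted p = 0.224) and rho = 0.734 (permutation p = 0.00849, adjusted p = 0.0974). Within groups r was 0.566, and this relation did not pass. Other relations with a list had an unadjusted p under 0.05 by Pearson r and did not pass. Cck had r = 0.767 with the receptor list (permutation p = 0.00372, adjusted p = 0.0634). Pvalb had r = -0.731 with the other interneuron genes (permutation p = 0.00696, adjusted p = 0.0893) and -0.698 with the EF-hand list (permutation p = 0.0107, adjusted p = 0.118). Calb1 had r = 0.681 with the projection neuron genes (permutation p = 0.0154, adjusted p = 0.149). Striatal projection neuron genes had medians of -0.046, 0.077 and -0.018, with 0 of 11 called. In DOPA against 6-OHDA 2 of these 11 did not overlap, beside 6.17% of all genes. Pdyn, the dynorphin precursor, was higher on 3 of 3 arrays by 1.40 (SE 0.28, adjusted p = 0.844), and Adora2a, an adenosine receptor gene, was lower on 3 of 3 by 0.23 (SE 0.14, adjusted p = 1). The part of these cell types in the results was not tested.

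For each member the genes most like it over the 12 arrays were sought among the 18350 other genes with a value on every array, by Pearson r of log2 signal. They were Slc35b1 (r = 0.953) and Adgre5 (0.935) for Sst, and Slc30a3 (0.927) and RGD1564163 (0.885) for Npy. For Pvalb they were Lamtor1 (0.916) and LOC680891 (0.903), for Calb1 AI045171 (0.855) and LOC680424 (0.839), and for Calb2 Slc16a11 (0.854) and TC532501 (0.825). For Vip they were Olfm1 (0.895) and TC526040 (0.891), and for Cck Cort (0.919) and TC546351 (0.893). These values are a description of the arrays and were not tested.

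Promoters of 5 of the 8 members were in the RefSeq table for the rat build GRCr8, those of Sst, Npy, Nos1, Pvalb and Vip, while Calb1, Calb2 and Cck were not matched. Each runs from 250 bases before to 50 bases after the gene's start, 300 bases in all. They were searched on both strands for the cAMP response element TGACGTCA, for its short form TGACG and for TATAAA, the letters of a TATA box. Of all 33469 promoters of this length, 1.83% held the full element, 21.2% the short form and 14.2% TATAAA. The full element holds the short form on each strand, so a match of the first is also 2 matches of the second. The promoters of Sst and Npy are printed because the same interneurons make both peptides and their relation, which did not pass, is described above, and that of Vip for comparison. Capitals mark the full element and its short form. The windows are chr11:90461296-90461595 for Sst, chr4:80211861-80212160 for Npy and chr1:44470230-44470529 for Vip, all on the plus strand.
Sst: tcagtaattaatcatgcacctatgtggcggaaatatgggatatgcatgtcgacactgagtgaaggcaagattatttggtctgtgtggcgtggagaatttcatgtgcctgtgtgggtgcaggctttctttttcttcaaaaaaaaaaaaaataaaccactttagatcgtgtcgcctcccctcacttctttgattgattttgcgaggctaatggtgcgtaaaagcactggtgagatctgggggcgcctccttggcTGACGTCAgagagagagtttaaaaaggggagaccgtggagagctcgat
Npy: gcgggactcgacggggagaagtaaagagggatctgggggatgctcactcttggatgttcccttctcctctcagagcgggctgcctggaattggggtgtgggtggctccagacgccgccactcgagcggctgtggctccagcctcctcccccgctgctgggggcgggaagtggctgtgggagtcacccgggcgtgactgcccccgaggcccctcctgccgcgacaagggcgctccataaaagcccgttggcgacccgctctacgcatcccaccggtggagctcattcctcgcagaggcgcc
Vip: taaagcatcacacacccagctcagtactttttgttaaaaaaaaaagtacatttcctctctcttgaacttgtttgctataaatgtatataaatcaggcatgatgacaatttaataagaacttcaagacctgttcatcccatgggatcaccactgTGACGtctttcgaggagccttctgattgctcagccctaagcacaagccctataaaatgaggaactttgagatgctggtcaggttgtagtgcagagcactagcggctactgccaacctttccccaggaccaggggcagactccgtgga
The Sst window held 1 full element, at base 253, and no short form outside it. With 250 bases before the gene's annotated start, this element lies just after that start. The Npy window held 0 matches of either, and the Vip window held 1 short form at base 154 and 3 matches of TATAAA. The Nos1 window, not printed, held 1 full element and 4 short forms, and the Pvalb window 1 short form. A match is a description of the letters and was not tested as a binding site.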

How the data were processed

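RNA of the dorsal striatum of 12 rats was read on 1 one-colour Agilent array each, and groups and replicate numbers were taken from the labels. The intensity values were deposited by the authors as scanner files, quantified with Agilent Feature Extraction 9.1 per the submitters' processing notes, with background and spatial trends removed within the array and no scaling between arrays. The authors deposited a second table of log2 values, quantile normalized per their methods, in which every array has a median of 7.208. It served as an alternative.

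Of 45018 spots per array, 1639 controls and the spots marked as outliers were left out. Intensities were taken to log2, quantile normalized and averaged over the spots of a probe, and a gene was read by its brightest probe among those that passed the filter. Of 41012 probes, 24824 carry a RefSeq-like accession and 10735 were named through a gene table. The 20462 genes were fitted over 12 arrays by lmFit and eBayes of limma 3.58.1 under R 4.3.3 (packages jsonlite 2.0.0 and, at version 1.17.8, data.table), and the fit was tested on simulated data. Intervals and standard errors are from this fit, and every p called exact is from a two-sided permutation of arrays. Correlations used 100000 permutations and Benjamini-Hochberg adjustment within their family. Precision is limited by the number of arrays.

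The genes named are the 8 members, the genes of the lists (receptors, nitric oxide pathway, other interneuron genes, other EF-hand proteins, peptide relatives, and markers of striatal projection neurons, glutamatergic neurons, choroid plexus, astrocytes, oligodendrocytes and microglia), and the 2 genes most like each member. Members and lists were chosen with earlier results of these data known. A list mean used the genes with a value on every array. Alternatives were scaling to the 75th percentile, the deposited log2 table, normexp (offset 50), outlier spots kept, a gene read as its probes' mean, a stricter filter (all arrays of at least 1 group) or none, the slide as a block, fits restricted to the arrays compared, other thresholds (adjusted p under 0.05, or no fold limit), and leaving out each array in turn. For correlations, keeping outlier spots, leaving out each array, the pairs of Calb1 probes and all relations with list means were added after seeing the data. RT-qPCR samples were not used here.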

Additional observations from a re-analysis of the deposited data

How the results depend on the processing

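limma called 0 members in each of the 6 comparisons under every alternative, at most 1 member reached an unadjusted p under 0.05, and the lowest adjusted p of a member's difference was 0.603. Of the 35 differences, 10 changed sign under a setting other than leaving out an array, and none of these was past the threshold. With scaling to the 75th percentile they were -0.016 (Vip) and -0.065 (Cck) in HFS, -0.027 (Npy) in DOPA, -0.035 (Calb1) and -0.008 (Calb2) in DOPA/HFS, and -0.006 (Npy) for the HFS main effect. With normexp they were -0.014 (Vip) in HFS, -0.02 (Calb2) in DOPA/HFS, -0.015 (Calb1) for the L-DOPA main effect and 0.021 (Calb1) for the HFS main effect. In the deposited table they were -0.02 (Vip) in HFS, -0.071 (Calb1) and -0.152 (Calb2) in DOPA/HFS, and -0.07 (Pvalb) and -0.05 (Calb1) for the L-DOPA main effect. With outlier spots kept they were -0.002 (Npy) in DOPA, -0.054 (Calb1) and -0.112 (Calb2) in DOPA/HFS, and -0.066 (Pvalb) and -0.011 (Calb1) for the L-DOPA main effect. With the mean of all probes Calb1 was 0.044 in DOPA and 0.039 for the HFS main effect. The cause was not tested.

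Leaving out each array in turn changed the sign of 22 differences. In HFS they ranged from -0.415 to 0.095 for Pvalb, -0.203 to 0.004 for Calb1, -0.32 to 0.459 for Vip and -0.337 to 0.64 for Cck. In DOPA they ranged from -0.223 to 0.331 for Sst, -0.1 to 0.06 for Npy, -0.361 to 0.148 for Pvalb and -0.137 to 0.051 for Calb1. In DOPA/HFS they ranged from -0.642 to 0.3 for Sst, -0.082 to 0.38 for Npy, -0.373 to 0.283 for Pvalb, -0.045 to 0.107 for Calb1, -0.099 to 0.153 for Calb2, -0.452 to 0.129 for Vip and -0.187 to 0.401 for Cck. For the L-DOPA main effect they ranged from -0.16 to 0.168 for Pvalb and -0.025 to 0.08 for Calb1. For the HFS main effect they ranged from -0.122 to 0.348 for Sst, -0.086 to 0.144 for Npy, -0.213 to 0.114 for Pvalb, -0.065 to 0.039 for Calb1 and -0.044 to 0.349 for Vip.

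The correlation of Sst and Nos1 was -0.08 with outlier spots kept. That of Npy and Nos1 was 0.065 as deviations from group means, 0.047 with scaling to the 75th percentile, 0.517 with outlier spots kept, and -0.316 to 0.07 when each array was left out. Nos1 is at background, which limits both. Sst and Npy kept a negative r in all settings. The adjusted p of Cck with the glutamatergic markers was 0.125 after group and slide means were removed, and r was 0.754 to 0.888 when each array was left out. The correlation of Cck with Cort passed in all settings with a test.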
